A study of Procambarus virginalis with 6 samples.

Results

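The cells described here were hemocytes of the marbled crayfish that carried much RNA of 4 features set down as markers of granular cells (GCs) and little of the markers of semigranular cells (SGCs) and of hemocyte-derived neuronal precursors (HDNPs). They are called GC-like cells. They were chosen by measured values of these same libraries. A cell was counted as GC-like when the features WNGS01001312.121569_1_covsplit (called GC1 here), WNGS01063966.1054011_0_covsplit (GC2), WNGS01039069.816776_0_covsplit (GC3) and WNGS01160776.1908630_0_covsplit (GC4) held together at least 5% of its unique molecular identifiers (UMIs, the tags that mark single captured transcripts), while 4 SGC features held under 2% and 5 HDNP features under 1%. This rule found 1062 GC-like cells among the 11521 cells with 100 to 2000 features, or 9.22%.

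Procambarus virginalis is a clonal, all-female species, and its hemocytes circulate in the hemolymph. The KD animals KD1 to KD3 had been injected with double-stranded RNA against Dnmt1, the enzyme that maintains DNA methylation, and the Control animals Ctrl1 to Ctrl3 with double-stranded RNA against GFP, a gene the crayfish lacks. Hemolymph was taken 28 days post injection (dpi) from 3 animals per group, and about the same number of cells per sample was loaded on the 10X Genomics droplet platform. The comparison asks whether the knockdown went with a change in the number or the RNA content of these cells. The dsRNA was given to the whole animal through the hemolymph and not to 1 cell type. The level of Dnmt1 itself is not analysed here because no feature is paired with a gene name.

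Crustacean hemocytes fall into hyaline, semigranular and granular cells, which differ in size and in the number of cytoplasmic granules. GCs are regarded as the most mature of them. Their granules store proteins of the immune response, among them antimicrobial peptides such as crustins and components of the prophenoloxidase cascade, which leads to melanin, and they release this content when the cell is activated. SGCs are best known for the encapsulation of foreign bodies.

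The label could not be checked against crustins, lysozyme or other known GC genes, since the deposited features carry identifiers only. The 4 GC features had led a cluster of Ctrl1 cells in earlier results of these data, a cluster that corresponds to the GCs of the study by its rank in size. The name therefore rests on that rank and on no annotation. Of the GC-like cells, 30 of 43 in KD1, 24 of 37 in KD2 and 355 of 503 in KD3 held UMIs of all 4 features, against 227 of 368 in Ctrl1, 38 of 69 in Ctrl2 and 20 of 42 in Ctrl3. The SGC features held 0.0583% to 0.143% of the UMIs of GC-like cells in the KD animals and 0.0502% to 0.321% in the Control animals. The HDNP features held 0.0116% to 0.0373% in KD and 0.0300% to 0.0612% in Control animals. Low values of both lists were a condition of the rule and are no finding.

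Several properties of the libraries bear on the values that follow. Over all barcodes the libraries held between 259605 UMIs, in KD2, and 2487952 UMIs, in KD3. KD1, KD2, Ctrl2 and Ctrl3 had cell barcodes in common, up to the 113 that KD2 and Ctrl3 both kept and the 110 that KD1 and KD2 both kept, while Ctrl1 had none in common with any library and KD3 had 1. Among the GC-like cells, 7 of 43 in KD1, 9 of 37 in KD2, 2 of 69 in Ctrl2 and 13 of 42 in Ctrl3 had such a barcode. The first 7 bases of a barcode were also found at the start of a KD3 barcode for 95.4% to 96.9% of the kept cells of KD1, KD2, Ctrl2 and Ctrl3, but for 24.7% of those of Ctrl1. Cells outside the class also held RNA of the GC features, and its source was not tested. GC1, the most abundant of the 4 GC features, had a UMI in 94.9% of the SGC-like cells of KD3 and in 98.5% of those of Ctrl1, where it held 0.583% and 1.45% of their UMIs. In the HDNP-like cells of Ctrl1 it held 4.16%, close to the 5% of the rule, and 151 further cells of Ctrl1 met the GC limit but not the HDNP limit, against 2 in KD2 and 0 in the other animals.

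GC-like cells made up 4.88% of the kept cells in KD1 (43 of 881, exact Clopper-Pearson 95% interval 3.55% to 6.52%), 5.83% in KD2 (37 of 635, 4.14% to 7.94%) and 17.5% in KD3 (503 of 2869, 16.2% to 19.0%). In the Control animals the share was 6.92% in Ctrl1 (368 of 5318, 6.25% to 7.64%), 5.77% in Ctrl2 (69 of 1196, 4.52% to 7.24%) and 6.75% in Ctrl3 (42 of 622, 4.91% to 9.02%). The intervals cover counting error only. KD3 alone stood above all 3 Control animals, while KD1 stood below them and KD2 between Ctrl2 and Ctrl3. The means were 9.41% ± 7.05 in KD and 6.48% ± 0.622 in Control animals (SD, n = 3 each), a difference of 2.93 percentage points. The difference was smaller than the SD of the KD animals (permutation test over animals, exact and two-sided, p = 0.9, where 3 against 3 animals can give no p below 0.1). Without KD3 the difference was -1.13 points (exact permutation p = 0.3).

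The share also moved with the smallest number of features asked of a cell. With at least 20 features, a limit the methods of the study also name, it was 5.70% in KD1, 13.7% in KD2 and 20.6% in KD3, against 10.6% in Ctrl1, 5.91% in Ctrl2 and 9.38% in Ctrl3. KD2 then also stood above all Control animals. With at least 200 features it was 3.92%, 5.66% and 17.0% in KD1, KD2 and KD3, against 5.35%, 5.47% and 3.89% in Ctrl1, Ctrl2 and Ctrl3. KD2, with 6 of 106 cells, again stood above all Control animals, and the order of the animals changed again. The exact permutation p was 0.5 and 0.4 at these limits. The limit removed unequal numbers of cells, since at 200 features Ctrl1 kept 187 of its cells and KD1 kept 867. With a GC limit of 2.5% in place of 5%, KD2, at 12.6%, also stood above all Control animals, of which Ctrl1 was highest at 12.2% (exact permutation p = 0.6). With a GC limit of 10%, KD3 alone did.

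**Figure D1:**
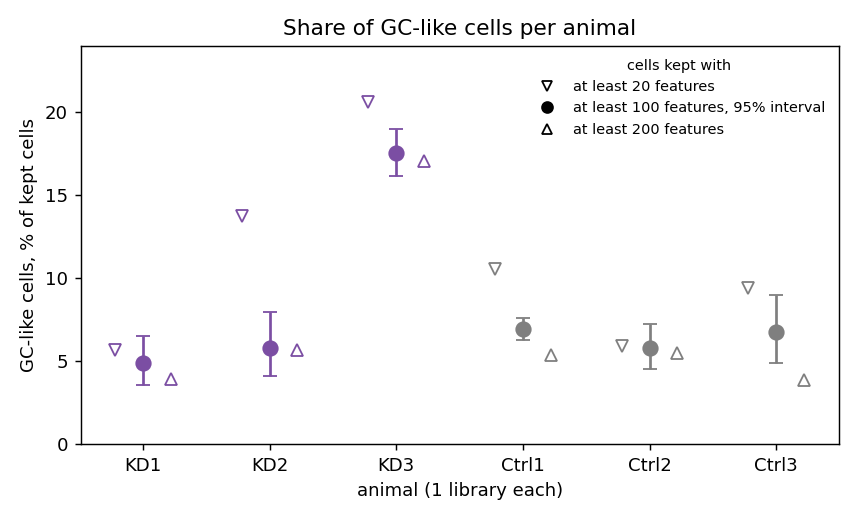
Share of GC-like cells in each animal, as a percentage of the cells kept, for cells with at least 20, 100 and 200 features. Filled points are the shares at 100 features with exact 95% intervals for counting error. KD3, at 17.5%, lies above the 5.77% to 6.92% of the Control animals, whereas KD1 and KD2, at 4.88% and 5.83%, do not.

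The RNA of GC-like cells was taken up by very few features. The first 10 features held 71.7%, 76.0% and 80.1% of all UMIs of GC-like cells in KD1, KD2 and KD3, and 78.8%, 67.5% and 74.9% in Ctrl1, Ctrl2 and Ctrl3. In the other cells of the same animals the first 10 features held 18.7% to 34.4% in KD and 19.0% to 32.6% in Control animals. No more than 3 features sufficed for 50% of the UMIs of GC-like cells in any animal, against 23 to 104 features in the other cells. Of the 10 most abundant features of GC-like cells, 8 were the same in all 6 animals, and 2 of these 8 belong to the rule.

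The feature with the most UMIs was not part of the rule. This was WNGS01163813.2084876, called GC5 here, which had led the cluster taken as GCs in earlier results of these data. GC5 held 36.6%, 52.7% and 47.6% of the UMIs of GC-like cells in KD1, KD2 and KD3, against 7.11%, 25.7% and 46.8% in Ctrl1, Ctrl2 and Ctrl3. It ranked first in 5 animals and at place 3 in Ctrl1. In the other cells it held 0.841%, 2.44% and 1.81% in the KD animals and 0.751%, 1.09% and 0.975% in the Control animals. Each animal thus had more of it in GC-like cells. A share of at least 20% of a cell's UMIs was reached in 43 of 43 GC-like cells of KD1, 34 of 37 of KD2 and 473 of 503 of KD3, against 8 of 368 of Ctrl1, 46 of 69 of Ctrl2 and 40 of 42 of Ctrl3. Cells outside the class reached it in 6, 5 and 7 cases in KD1, KD2 and KD3, and in 0, 9 and 7 cases in Ctrl1, Ctrl2 and Ctrl3.

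Among the rule's own features, GC1 held 15.3%, 7.99% and 12.2% of the UMIs of GC-like cells in KD1, KD2 and KD3, against 38.1%, 18.3% and 10.5% in Ctrl1, Ctrl2 and Ctrl3. Ctrl1 stood apart with the highest level of GC1 and the lowest of GC5. The second, GC2, held 1.78%, 4.76% and 7.93% in the KD and 5.87%, 1.03% and 4.47% in the Control animals, and the groups overlapped. The other 2 were minor. GC3 averaged 0.322% ± 0.0857 in KD and 0.425% ± 0.0281 in Control animals, and GC4 averaged 0.177% ± 0.123 in KD and 0.111% ± 0.108 in Control animals (SD, n = 3 each). These levels chose the cells and are given as a description. Together, GC1 and GC5 held 52.0%, 60.7% and 59.7% of the UMIs in KD1, KD2 and KD3, and 45.2%, 44.1% and 57.2% in Ctrl1, Ctrl2 and Ctrl3.

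**Figure D2:**
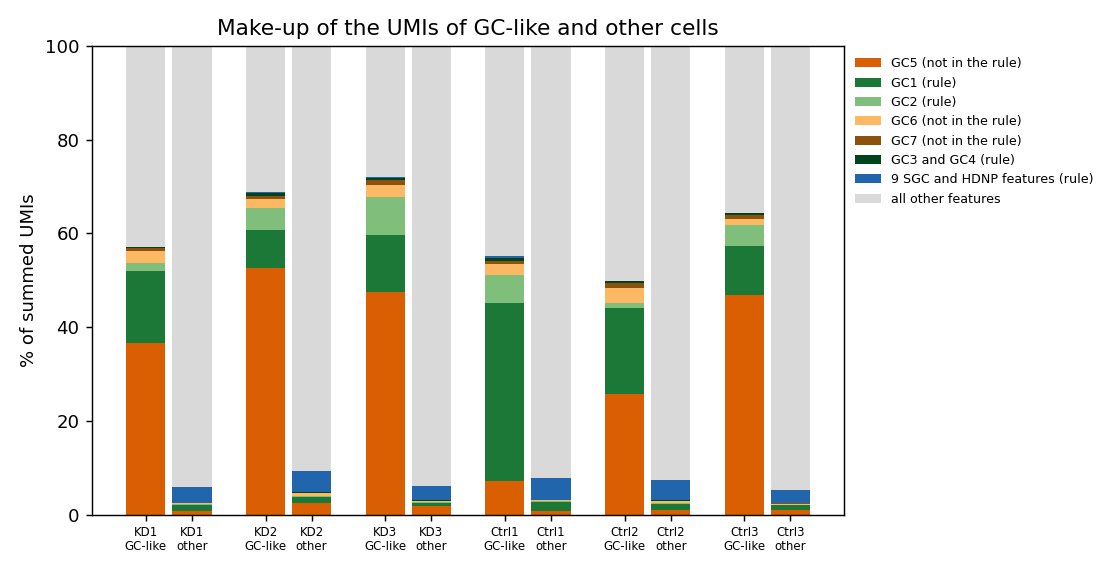
Make-up of the summed UMIs of GC-like and other cells in each animal, in percent. The orange block, feature GC5, is the largest named block in GC-like cells of every animal but Ctrl1, where GC1 holds 38.1%, and all named features together stay small in the other cells.

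GC-like cells were not alike. In KD3 and Ctrl1, the animals with the most of them, they formed a spread from cells rich in GC1 to cells nearly without it. In KD3, GC1 held a median of 9.64% of a cell's UMIs, with quartiles at 5.05% and 17.0%. In Ctrl1 the median was 38.1% and the quartiles were 5.28% and 50.2%. GC2 gave most of the UMIs of the 4 GC features in 0% of the GC-like cells of KD1, 10.8% of KD2 and 41.6% of KD3, against 23.1% in Ctrl1, 0% in Ctrl2 and 11.9% in Ctrl3.

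The cells in which GC1 held under 2% of the UMIs also differed in other features. The limit of 2% was chosen after the values were seen, so they are described without a test. There were 66 such GC-like cells in KD3, 1 in KD2 and 0 in KD1, against 64 in Ctrl1, 3 in Ctrl3 and 0 in Ctrl2. WNGS01092210.1251734_1_covsplit (GC6), another feature that had led the cluster taken as GCs in the earlier results, was nearly absent in them. Its median was 0.168% of a cell's UMIs in these cells of KD3 and 0% in those of Ctrl1 and Ctrl3, against 2.68% in KD3, 1.79% in Ctrl1 and 1.82% in Ctrl3 in the GC-like cells in which GC1 held 10% or more. WNGS01160430.1886216 (GC7) showed the opposite order, with medians of 1.74% in KD3, 2.60% in Ctrl1 and 2.70% in Ctrl3 in the cells with little GC1, against 0.727%, 0.366% and 0.602% in the cells rich in it. GC2 is not compared between these ranges, since a cell with little GC1 could meet the rule only with more of the other GC features. In the cells between the limits, GC6 lay between these values, with 0.608% in KD3, 1.14% in Ctrl1 and 0.971% in Ctrl3, whereas GC7, with 0.853%, 0.251% and 0.577%, was lowest there in Ctrl1 and Ctrl3. The values of Ctrl3 with little GC1 come from 3 cells. In every animal but KD3, GC7 was higher in the cells rich in GC1 than in those with 2% to 10% of GC1. KD1, KD2 and Ctrl2 had at most 1 cell with little GC1. Their medians of GC7 were 0.635%, 0.490% and 0.942% in the cells rich in GC1. Those in the cells with 2% to 10% of GC1 were 0.319%, 0.324% and 0.750%. Shares within a cell sum to a fixed total, so a lower share of 1 feature raises the others, and this was not separated from a change in amount.

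GC5 followed neither order. In the cells with little GC1 its median was 27.4% in KD3, 2.91% in Ctrl1 and 34.5% in Ctrl3, against 42.2%, 7.23% and 41.3% in the cells rich in GC1. The cells between these limits had the highest level in KD3 and Ctrl3, with 58.0% and 58.1%, and the lowest in Ctrl1, with 2.24%. These 56 intermediate cells of Ctrl1 also had few UMIs, a median of 595 against 1192 in the cells rich in GC1. GC5 was thus lower in Ctrl1 than in KD3 and Ctrl3 in each of the 3 ranges of GC1.

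**Figure D3:**
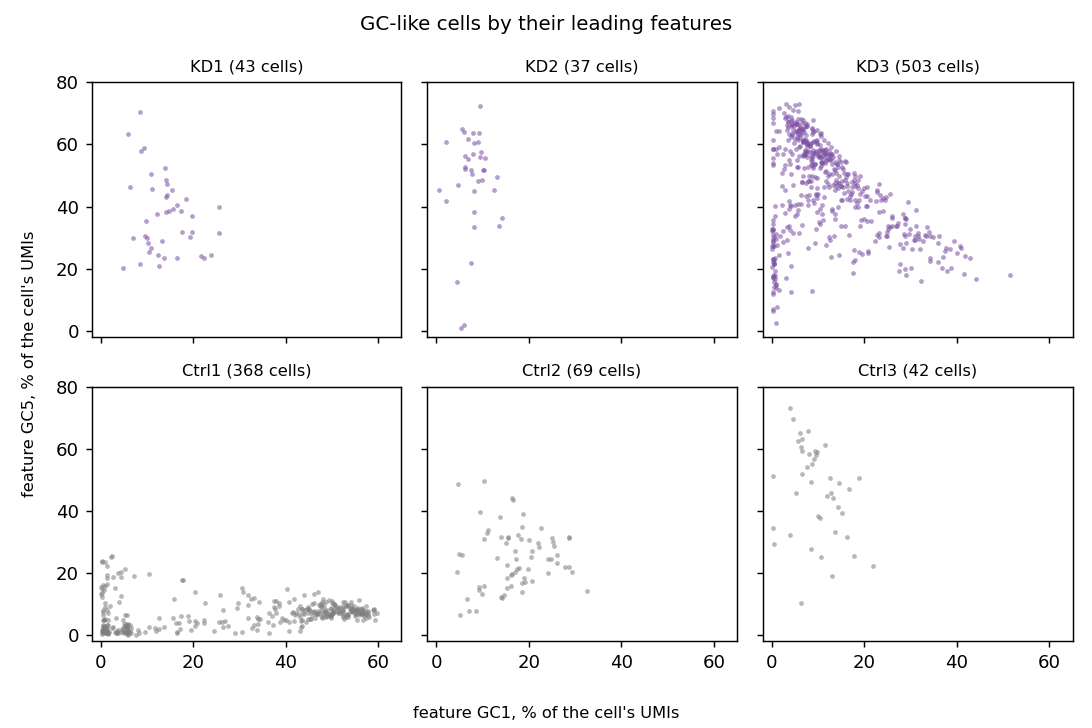
Each point is a GC-like cell, placed by the percentage of its UMIs that came from feature GC1 and from feature GC5, with 1 panel per animal. In KD3 the cells form a falling band of GC5 with rising GC1 beside a column of cells near 0% of GC1, while those of Ctrl1 stay low in GC5 and reach 59.6% of GC1.

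Cells close to the limits of the rule differed between animals. Between 5% and 6% of UMIs in the 4 GC features lay 0, 5 and 8 cells in KD1, KD2 and KD3, and 23, 2 and 3 in Ctrl1, Ctrl2 and Ctrl3. Just below the limit, from 4% to 5%, lay 1, 6 and 5 cells in the KD animals and 70, 7 and 1 in the Control animals. In Ctrl1 the median share of GC5 was 1.78% in the cells just inside and 1.48% in those just outside, against 6.76% in all its GC-like cells, and their median UMI counts were 419 and 309, against 922. In KD3 the values were 16.3% inside and 12.8% outside, against 47.0% in all GC-like cells.

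With GC5 counted, GC-like cells held more UMIs than the other cells of the same animal, and these UMIs came from fewer kinds of RNA. Outside the 13 features of the rule, the median cell held 1641, 775 and 1337 UMIs in GC-like cells of KD1, KD2 and KD3, against 1203, 204 and 523 in the other cells. In the Control animals it held 531, 2299 and 1219.5 UMIs in GC-like cells of Ctrl1, Ctrl2 and Ctrl3, against 254, 1058 and 704 in the other cells. GC-like cells were higher in 6 of 6 animals, by 2.17-fold on average (exact sign-flip permutation test over the 6 pairs, two-sided, p = 0.03125, the smallest 6 pairs can give, adjusted p = 0.0469 over 3 measures). A cell needed at least 100 features to be kept, and GC-like cells, with fewer features per UMI, needed more UMIs for that. The limit left out 487 barcodes of Ctrl1 that met the rule, beside 368 kept, and 101 of KD2, beside 37 kept. How much of the ratio this limit made was not tested. GC5 was among these UMIs and had led the cluster that gave the rule its features. The test is therefore not independent of how the cells were chosen. With GC5 also left out, a choice made after seeing the data, GC-like cells were higher in 3 of 6 animals and the mean ratio was 1.07 (exact permutation p = 0.6875).

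The number of features per cell, outside the rule, was 365, 131 and 172 in GC-like cells of KD1, KD2 and KD3, against 553, 133 and 176 in the other cells. In Ctrl1, Ctrl2 and Ctrl3 it was 125.5, 491 and 211, against 128, 488 and 338.5. It was lower in GC-like cells of 5 of 6 animals, with the widest gaps in KD1 and Ctrl3, and the exact permutation p over the 6 pairs was 0.0625. In 100 UMIs drawn from each cell outside the rule features, so that depth was equal, GC-like cells held a median of 37, 29 and 27 features in KD1, KD2 and KD3, against 79, 77 and 57 in the other cells. In Ctrl1, Ctrl2 and Ctrl3 they held 39, 47 and 31.5, against 65, 75 and 76. This number was lower in 6 of 6 animals, at 0.485 of the value of other cells on average (exact permutation p = 0.03125, adjusted p = 0.0469). The drawn UMIs included GC5, so this test is likewise not independent of how the cells were chosen. Without GC5 among the drawn UMIs it was still lower in 6 of 6 animals, at 0.816 of the value of other cells, with 63, 66 and 54 features in KD1, KD2 and KD3 against 80, 78 and 56, and 41, 64 and 63 in Ctrl1, Ctrl2 and Ctrl3 against 65, 74 and 75. KD3, at 54 against 56, showed the smallest gap.

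**Figure D4:**
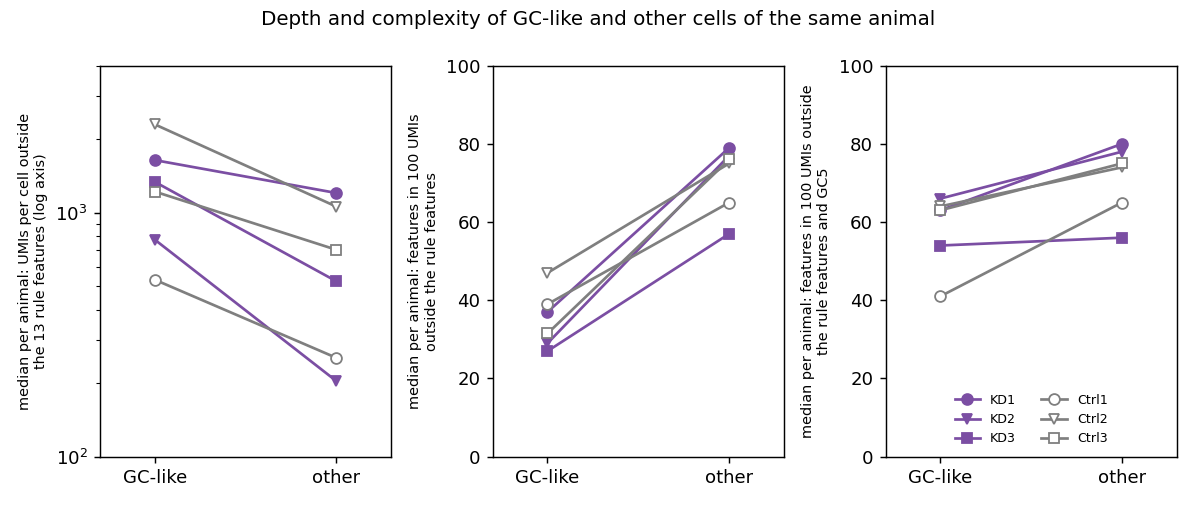
Median per animal of the UMIs outside the rule features (log axis) and of the number of features in 100 drawn UMIs, without the rule features and without the rule features and GC5, for GC-like cells (left) and other cells (right) of the same animal. GC-like cells lie higher in UMIs and lower in features in all 6 animals, and the gap in features narrows once GC5 is left out.

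Between the groups, the UMIs and the features of GC-like cells differed by less than the SD of either group, while the features in 100 UMIs, lower in KD, differed by more than both SDs and did not pass the test. The UMIs outside the rule averaged 1251 ± 439 in KD and 1350 ± 891 in Control animals, the features 223 ± 125 and 276 ± 191, and the features in 100 UMIs 31.0 ± 5.29 and 39.2 ± 7.75, each time for KD and then Control animals (SD, n = 3 each). The exact permutation p values were 0.9, 0.8 and 0.2, and the adjusted values over these 3 measures were 0.9, 0.9 and 0.6.

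For each animal, UMIs were summed over its GC-like cells and over its other cells, and the features outside the rule were compared within animals by the quasi-likelihood test of edgeR. Of 1771 features that passed the filter on low counts, 460 had an adjusted p under 0.05 (26% of those tested), 174 higher in GC-like cells (9.82%) and 286 lower (16.1%). The cells had been sorted by their own RNA, so these counts describe what went along with the 4 GC features and are not a test of a difference between cell types. Of the called features, 112 were higher and 227 lower in all 6 animals with at least 50 UMIs, on values scaled by TMM factors. The features that were higher took 63.2%, 69.4% and 66.3% of the UMIs of GC-like cells in KD1, KD2 and KD3 and 38.9%, 58.7% and 67.3% in Ctrl1, Ctrl2 and Ctrl3, against 9.26% to 14.2% of the UMIs of other cells in KD and 9.18% to 17.3% in Control animals. Of these shares, GC5 alone made up 36.6%, 52.7% and 47.6% of the UMIs in KD1, KD2 and KD3. In Ctrl1, Ctrl2 and Ctrl3 it made up 7.11%, 25.7% and 46.8%. The split depended on the scale. With totals in place of TMM factors, which set the bulk of features equal, 73 features were higher and 1491 lower, and the median log2 fold change of all features was -1.48 in place of -0.20. Of the 460 calls, 389 kept their sign with totals. Without KD3, which held 503 of the 1062 cells, 293 of 1179 features were called, or 24.9%.

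The called features included GC5, GC6 and GC7, which the rule did not use. They had led the cluster taken as GCs in earlier results of these same data. Their call was therefore built in and is no check of the name. The log2 fold change of GC-like over other cells was 6.13 ± 0.49 for GC5, 4.82 ± 0.31 for GC7 and 4.45 ± 0.36 for GC6 (SE). With totals in place of TMM factors, the scale of the percentages above, it was 4.83, 3.52 and 3.15 for GC5, GC7 and GC6. Of 2 features that had marked the smallest cluster of Ctrl1, the counterpart of the circulating prohemocytes, WNGS01092210.1242857 was also higher in GC-like cells, by 3.00 ± 0.29 (SE). It had 3.36, 3.42 and 0.742 UMIs per 10000 in GC-like cells of KD1, KD2 and KD3, against 0.497, 1.34 and 0.195 in other cells, and 3.70, 2.26 and 1.5 in GC-like cells of Ctrl1, Ctrl2 and Ctrl3, against 5.74, 0.365 and 0.627. It was thus lower in GC-like cells of Ctrl1 on the scale of totals. The other, WNGS01092210.1271499, had 0 UMIs in GC-like cells of KD1, KD2, Ctrl2 and Ctrl3, 2 in those of KD3 and 27 in those of Ctrl1.

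Larger fold changes belonged to rare features. WNGS01135237.1639662_0_covsplit had 28, 1 and 36 UMIs in GC-like cells of KD1, KD2 and KD3 against 3, 1 and 2 in their far more numerous other cells, and 10, 37 and 4 in GC-like cells of Ctrl1, Ctrl2 and Ctrl3 against 1, 0 and 0 (log2 fold change 7.73 ± 0.45, SE). WNGS01004946.327884_0_covsplit had 13, 4 and 58 UMIs in GC-like cells of the KD animals against 1, 0 and 0 in the other cells, and 75, 13 and 4 in GC-like cells of the Control animals against 10, 2 and 0 (7.36 ± 0.42, SE). Most of the RNA of these features came from GC-like cells in every animal, except for the first feature in KD2, which had 1 UMI in each class.

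A pair of features showed the opposite. WNGS01000690.81364_0_covsplit had 0 UMIs in GC-like cells of KD1, KD2 and KD3, against 984, 71 and 102 in the other cells, and 2, 1 and 0 in GC-like cells of Ctrl1, Ctrl2 and Ctrl3, against 85, 778 and 214 (log2 fold change -5.25 ± 0.55, SE). WNGS01165218.2281402_0_covsplit had 0 in GC-like cells of all KD animals, against 2508, 98 and 91 in the other cells. In the Control animals it had 211, 0 and 1 UMIs in GC-like cells, against 9027, 948 and 316 (-3.63 ± 0.42, SE). Ctrl1 set much of this value, which was -7.34 without it, and -5.73 in DESeq2. A value of 0 allows up to 3 UMIs, which is 0.297, 0.934 and 0.0323 UMIs per 10000 in GC-like cells of KD1, KD2 and KD3, so that in KD3 both lay under their level of 0.687 and 0.613 per 10000 in the other cells. In KD2 the limit of 0.934 was also under 4.54 and 6.26. With 0 UMIs in several animals the fitted fold changes depend on the small count that the fit adds.

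**Figure D5:**
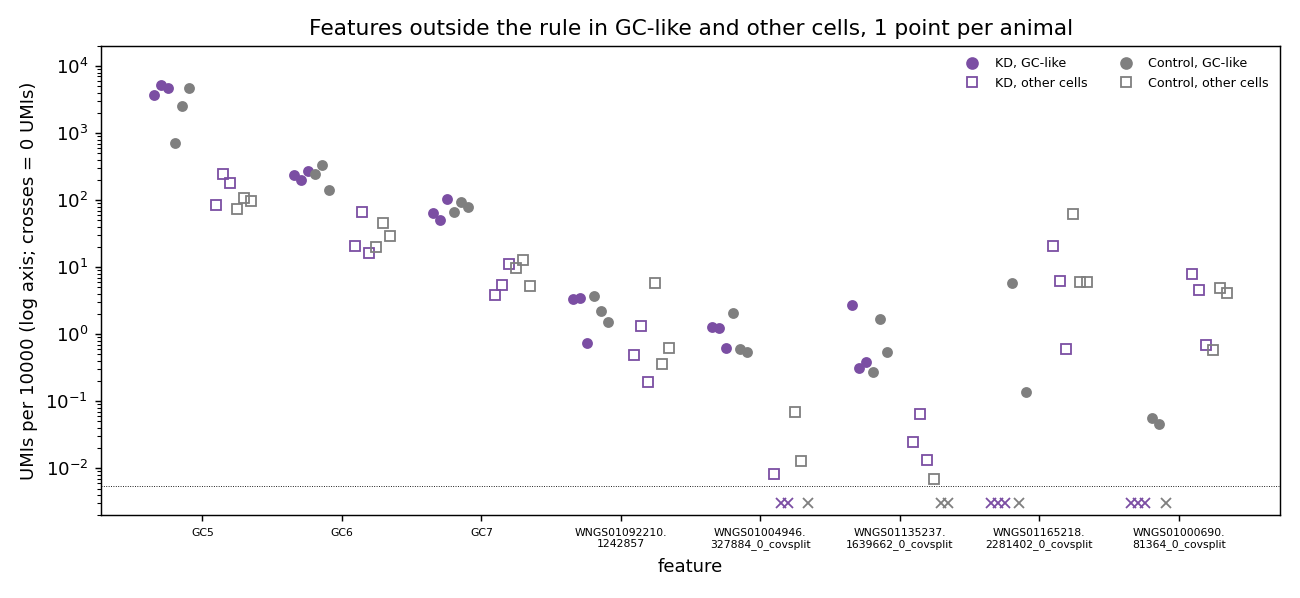
UMIs per 10000 (log axis) of 8 features outside the rule in GC-like cells (filled circles) and other cells (open squares) of each animal, with crosses for sums of 0 UMIs. The first 3 features and the rare features WNGS01004946.327884_0_covsplit and WNGS01135237.1639662_0_covsplit are higher in GC-like cells of all 6 animals, though WNGS01135237.1639662_0_covsplit had only 1 UMI per class in KD2, WNGS01092210.1242857 of all but Ctrl1, and WNGS01165218.2281402_0_covsplit and WNGS01000690.81364_0_covsplit are lower in all 6.

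The features that were higher lay on 71 contigs of the assembly, of 213 with a feature tested. WNGS01165751 held 10 of them among 41 tested, WNGS01001312, which also carries GC1, held 8 among 105, and WNGS01004946 held 7 among 35. All 3 tested features of WNGS01009955 and all 3 of WNGS01123157 were higher. The shares of 24.4%, 7.62% and 20% on the first 3 contigs stand beside 9.82% over all features, and closely related features on 1 contig could share reads, which the counts do not show.

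In the GC-like cells themselves, KD and Control animals were compared over 506 features. None passed an adjusted p of 0.05 in edgeR (0 of 506, 0%), 6 had an unadjusted p under 0.05, and DESeq2 called 0 with 15 under 0.05. All 3 KD animals lay above all 3 Control animals for 6 features and below them for 7, or 2.57% of the 506 together. The median standard error of a log2 fold change was 0.70, so that only large differences could have passed. GC5 had a log2 fold change of 1.11 ± 0.74 (SE, unadjusted p = 0.164, adjusted p = 0.995, edgeR), with 45.6% ± 8.19 of the UMIs in KD and 26.5% ± 19.8 in Control animals (SD, n = 3 each). Ctrl3, at 46.8%, lay within the range of the KD animals, and the log2 fold change ranged from 0.67 without KD3 to 1.80 without Ctrl3 (0.75 without Ctrl1). With the replicate block it was 1.24 (unadjusted p = 0.0263, adjusted p = 0.998, edgeR). Those of GC6 and GC7 were 0.14 ± 0.68 and 0.12 ± 0.68 (SE) and took the opposite sign, at -0.28 and -0.36, with totals in place of TMM factors.

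The feature with the smallest p among those higher in KD was WNGS01009631.583284_1_covsplit, with 0.593, 1.56 and 1.29 UMIs per 10000 in GC-like cells of KD1, KD2 and KD3, against 0.111, 0.461 and 0.682 in Ctrl1, Ctrl2 and Ctrl3 (log2 fold change 1.97 ± 0.76, SE). These values come from 4 to 120 UMIs per animal, and KD1 lay below Ctrl3. Among those lower in KD it was WNGS01005680.405237_29_covsplit, with 7.22, 2.80 and 4.65 UMIs per 10000 in the KD animals, against 22.4, 13.4 and 9.82 in the Control animals (log2 fold change -1.71 ± 0.73, SE). Here the groups did not overlap, but the log2 fold change was -0.78 without Ctrl1, and -2.20 to -1.53 as each of the other animals was left out. The unadjusted p values of the quasi-likelihood test of edgeR were 0.0258 and 0.0404, and the adjusted p was 0.995 for both. The other cells of the same animals had 14.8, 10.4 and 5.09 per 10000 of WNGS01005680.405237_29_covsplit in KD and 22.5, 28.5 and 15.9 in Control animals, which also did not overlap. Of WNGS01009631.583284_1_covsplit they had 1.40, 2.68 and 6.90 per 10000 in KD1, KD2 and KD3. In Ctrl1, Ctrl2 and Ctrl3 they had 0.848, 1.29 and 2.30, so that KD1 lay below Ctrl3 there too.

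Whether the contrast of GC-like and other cells differed between KD and Control animals was tested as an interaction over 1771 features. None passed (0%), 37 had an unadjusted p under 0.05, and DESeq2 called 0 with 14 under 0.05. Without Ctrl2 there were 2 calls, WNGS01165218.2281402_0_covsplit and WNGS01130024.1609821_0_covsplit, named after their values were seen. Neither had a UMI in GC-like cells of any KD animal or of Ctrl2. WNGS01165218.2281402_0_covsplit had 5.86 and 0.136 UMIs per 10000 in those of Ctrl1 and Ctrl3, and WNGS01130024.1609821_0_covsplit had 0.306 and 0.409.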

How the data were processed

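For each animal the deposited matrix gives UMI counts as whole numbers, not normalized, for 72982 features. The authors made these counts with Cell Ranger, intronic reads included, and deposited only barcodes that the program called cells. The matrix headers give version 7.0.0 and the submitters' processing notes list 4.0.0, beside Seurat 4.3.0. The files pair the features with no gene names, and the genome build is not given in the sources used here. Cells with 100 to 2000 features were kept. No barcode exceeded 2000, no mitochondrial filter could be applied, no doublet caller was run, and doublets were kept. Where libraries had barcodes in common, results were also computed without them.

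The rule, the marker features and the further features GC5, GC6 and GC7 were chosen with earlier results of these data known. Comparison classes were HDNP-like cells (HDNP features at least 1%) and SGC-like cells (SGC features at least 2%, GC features under 5%, HDNP features under 1%). Other cells are all kept cells outside the class. The 13 rule features were left out of the tests across features. UMIs were summed per animal and class (at least 10 cells each) and tested with edgeR 4.0.16 (TMM, filterByExpr, quasi-likelihood test, Benjamini-Hochberg adjustment, R 4.3.3), for GC-like against other cells with the animal as a term, and with DESeq2 1.42.0 as an alternative. Shares and medians per animal were compared by exact permutation tests over animals. Nothing says that samples with the same number belong together, and the deviations from the group means correlated by -0.455, 0.098 and 0.026 for the numbers 1, 2 and 3, so no pairing was used. Between animals of unequal number the correlation ranged from -0.654 (KD3 and Ctrl2) to 0.619 (KD1 and Ctrl2), which the tests do not take into account. Named features were those called with the largest fold change, the same sign in every animal and at least 50 UMIs, with at most 2 per direction. Where no feature was called between KD and Control animals, the one with the smallest p per direction was named. The tests were tried on simulated data, and Python 3.11.15 with scipy 1.17.1 was used. Alternatives covered the GC and SGC limits of the rule, the feature minimum, thinning to 150 UMIs, barcodes in common, scaling, filters and leaving out each animal. The HDNP limit of 1% was not varied, though it left out 151 cells of Ctrl1 that met the GC limit.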

Additional observations from a re-analysis of the deposited data

Results flagged for a closer look

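Barcodes with fewer than 100 features were left out of every comparison, and in KD3 a larger part of them met the limits of the rule than in any Control library. They were 117 of 139 such barcodes in KD3, or 84.2%, 101 of 364 in KD2, or 27.7%, and 8 of 13 in KD1, or 61.5%, against 487 of 2760 in Ctrl1, or 17.6%, 2 of 5 in Ctrl2, or 40.0%, and 19 of 28 in Ctrl3, or 67.9%.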

How the results depend on the processing

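The share of GC-like cells differed between KD and Control animals by -1.13 to 5.20 percentage points as each animal was left out in turn, and by -0.91 points within KD1, KD2, Ctrl2 and Ctrl3, in place of 2.93. With 3 animals or fewer per group no alternative could give an exact permutation p under 0.1. With the replicate block (pairs of equal number) the difference was 2.93 points. For UMIs outside the rule features, the mean log2 ratio of GC-like to other cells of 1.12 was 0.10 with GC5 also left out, and 0.96 to 1.25 with an animal left out, where 5 pairs can give no p below 0.0625. That of the features in 100 UMIs was -1.12 to -0.97. That of all features outside the rule, -0.23, was -0.34 against SGC-like cells only, -0.24 with means over cells, -0.23 at a GC limit of 10% and -0.21 without shared barcodes, each with an exact permutation p of 0.03125, and -0.27 to -0.13 with an animal left out. Between KD and Control animals the log2 differences in UMIs (0.06), features (-0.22) and features in 100 UMIs (-0.33) ranged from -0.49 to 0.57, -0.67 to 0.31 and -0.48 to -0.19 with an animal left out, and were -0.46 for UMIs and 0.15 for features in 100 UMIs without GC5.

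Calls between GC-like and other cells numbered 2106 of 36563 features without the filter, 1564 with totals only, 371 with DESeq2, and 293 to 604 with an animal left out, against 460 of 1771. Of the 460, 438 kept their sign without the filter and 389 with totals only, and every one tested kept it under the other alternatives run. Between KD and Control animals in GC-like cells there was 1 call of 15936 features without the filter, WNGS01165218.2281402_0_covsplit, and 0 in every other fit, the replicate block included (4 with an unadjusted p under 0.05). The interaction had 0 to 2 calls with an animal left out. Between KD and Control animals in GC-like cells the median log2 fold change of all features moved with totals only to -0.30. With features that did not pass, WNGS01092210.1242857 reversed from -0.32 to 0.31 at a GC limit of 10%, GC6 to -0.28 and GC7 to -0.36 with totals only, and with the replicate block GC7 to -0.12 and WNGS01004946.327884_0_covsplit from -0.40 to 0.17. With an animal left out they ranged from -0.94 to 0.61 (WNGS01092210.1242857), -0.48 to 0.57 (GC6), -0.82 to 0.44 (GC7) and -1.0 to 1.19 (WNGS01004946.327884_0_covsplit). The causes were not tested. Depth limits most what can be said of KD2, whose GC-like cells summed to 32133 UMIs.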
